A study of Homo sapiens with 16 samples.

Results

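The genes examined were the 7 human genes that encode CDK inhibitors: *CDKN1A* (p21), *CDKN1B* (p27) and *CDKN1C* (p57) of the CIP/KIP family, and *CDKN2A* (p16INK4A and, from a distal first exon in another reading frame, p14ARF), *CDKN2B* (p15), *CDKN2C* (p18) and *CDKN2D* (p19) of the INK4 family. They were taken by name from 20098 protein-coding genes on chromosomes 1 to 22 and X, each as its annotated hg19 body with 5 kb on each side. The rule that names the members uses no measured value. Histone H3 monomethylated at lysine 4 (H3K4me1) and histone H3 trimethylated at lysine 27 (H3K27me3) were mapped by CUT&Tag, in which transposase, held at the mark by antibodies, cuts and tags the nearby DNA for sequencing, in BE2C cells, a human neuroblastoma line with amplified *MYCN*. The 16 libraries formed 8 groups of 2. For each mark, the groups were cells 72 h after siRNA siKDM6B33 against the H3K27 demethylase *KDM6B*, cells 72 h after control siRNA siCtrl, cells given 2.5 µM GSK-J4 for 72 h, a small-molecule inhibitor of KDM6 demethylases, and cells given 0.1% DMSO for 72 h. All groups were the same cell line. The study describes its replicates as biological, and the labels do not say how the cultures were kept apart.

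CDK inhibitors hold back the kinases that drive the cell cycle. INK4 proteins bind CDK4 and CDK6 and keep D-type cyclins from activating them, so that the RB protein stays unphosphorylated and E2F factors stay bound to it. CIP/KIP proteins bind cyclin-CDK complexes more widely, above all those of CDK2. H3K4me1 marks enhancers and the flanks of active or poised promoters. H3K27me3 is written by the PRC2 complex at silent genes, and the *CDKN2A*-*CDKN2B* locus is a classic target of that complex.

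The promoters below are shown because 5 of them (*CDKN1B*, *CDKN2A*, *CDKN2B*, *CDKN2C* and *CDKN2D*) lay beside starts where H3K4me1 coverage was higher in both knockdown libraries, and the promoter of *CDKN1A* carried both marks in every group. Each is the part of the 250 bp before the main start that no annotated untranslated region covers, from the GRCh37 reference, 5′ to 3′ on the strand of the gene. Capitals mark the GC box GGGCGG and the E-box CACGTG, searched on both strands.
CDKN1A promoter, chr6:36646241-36646486, plus strand: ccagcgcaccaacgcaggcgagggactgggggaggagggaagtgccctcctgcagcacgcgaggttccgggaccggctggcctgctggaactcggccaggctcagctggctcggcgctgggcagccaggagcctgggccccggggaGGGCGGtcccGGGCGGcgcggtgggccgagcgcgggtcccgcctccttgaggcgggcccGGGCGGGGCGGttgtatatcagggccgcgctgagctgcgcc
CDKN1B promoter, chr12:12870052-12870301, plus strand: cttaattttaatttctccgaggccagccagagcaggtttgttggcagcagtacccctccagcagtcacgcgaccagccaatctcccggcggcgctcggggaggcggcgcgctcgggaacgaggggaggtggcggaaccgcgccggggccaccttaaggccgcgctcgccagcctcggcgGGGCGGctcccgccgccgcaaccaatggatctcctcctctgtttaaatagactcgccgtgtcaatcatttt
CDKN2A promoter of the INK4A transcript, chr9:21974866-21975106, minus strand: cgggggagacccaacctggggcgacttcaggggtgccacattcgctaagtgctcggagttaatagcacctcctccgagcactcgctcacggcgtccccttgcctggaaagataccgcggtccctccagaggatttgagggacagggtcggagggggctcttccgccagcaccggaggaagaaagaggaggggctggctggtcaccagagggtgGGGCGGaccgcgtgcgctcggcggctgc
CDKN2B promoter, chr9:22009305-22009554, minus strand: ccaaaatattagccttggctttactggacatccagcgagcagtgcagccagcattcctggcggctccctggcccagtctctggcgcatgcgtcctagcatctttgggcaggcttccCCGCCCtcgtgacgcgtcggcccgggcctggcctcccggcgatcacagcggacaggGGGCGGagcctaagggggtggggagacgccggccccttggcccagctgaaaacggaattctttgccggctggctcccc
CDKN2C promoter, chr1:51435667-51435916, plus strand: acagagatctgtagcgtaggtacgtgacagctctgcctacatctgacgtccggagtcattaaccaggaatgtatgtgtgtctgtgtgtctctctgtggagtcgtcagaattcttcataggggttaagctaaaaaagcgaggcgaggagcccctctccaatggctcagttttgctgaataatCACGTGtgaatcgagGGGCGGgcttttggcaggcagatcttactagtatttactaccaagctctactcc
CDKN2D promoter, chr19:10679736-10679905, minus strand: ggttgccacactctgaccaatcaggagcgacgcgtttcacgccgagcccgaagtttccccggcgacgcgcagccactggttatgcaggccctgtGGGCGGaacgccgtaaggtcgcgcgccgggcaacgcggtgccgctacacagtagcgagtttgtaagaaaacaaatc
The GC box was found in the 250 bp before the main start of all 7 genes, as in 60.1% of 18878 protein-coding promoters of that length. The E-box was found only at *CDKN2C*, and it lies in 7.89% of all such promoters. The E2F sequences TTTCCCGC and TTTGGCGC were in 0 of the 7 windows, against 2.70% of all promoters. *CDKN2C* stood apart in composition, with 48.8% G and C and 10 CpG in its window, where the other printed promoters held 18 to 27 CpG.

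The data were lists of broad regions (islands) and of narrow peaks called in each library. Depth was read from the narrow peaks as the mean number of tags expected over a base of genome background. This was 0.0849 to 0.107 for H3K4me1 in the knockdown experiment, and 0.0483 to 0.0569 in the compound experiment. For H3K27me3 it was 0.0395 to 0.0539 and 0.0298 to 0.0507. In the knockdown experiment both siKDM6B33 libraries were deeper than both siCtrl libraries for each mark, and their islands covered 114 to 115 Mb against 98.6 to 103 Mb for H3K4me1, and 87.3 to 89.8 Mb against 53.7 to 54.2 Mb for H3K27me3. The part of depth in the differences below was tested only as far as covered length can be equalised. The first GSK-J4 library of H3K27me3 stood apart, with 16676 islands where the other 3 libraries of that comparison had 7175 to 8006. As a check of the cell type, *PHOX2A*, *HAND2*, *GATA3*, *TH*, *DBH* and *MYCN*, which mark adrenergic neuroblastoma, were under H3K4me1 islands in all 8 libraries of that mark, and the blood genes *PTPRC* and *CD3E* had no island of either mark. *MYCN* is amplified here and was covered to 95.6% by both marks in every library, so its coverage cannot check the cell type. The other adrenergic markers also had H3K27me3 islands in some libraries, to at most 22.1% at *GATA3* and 100% at *TH*. Markers of other cell types were not all bare, since *FOSL1*, a mesenchymal-type marker, was covered by H3K4me1 to 37.1% to 69.5% and *KRT8*, an epithelial marker, to 3.50% to 21.7% in these libraries. Of the others, *PRRX1*, *TWIST2* and *EPCAM* were covered by H3K4me1 in some libraries, to at most 12.5%, and *FN1* in none. No transcript was counted, so the fall of *KDM6B* RNA itself could not be checked.

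**Figure D1:**
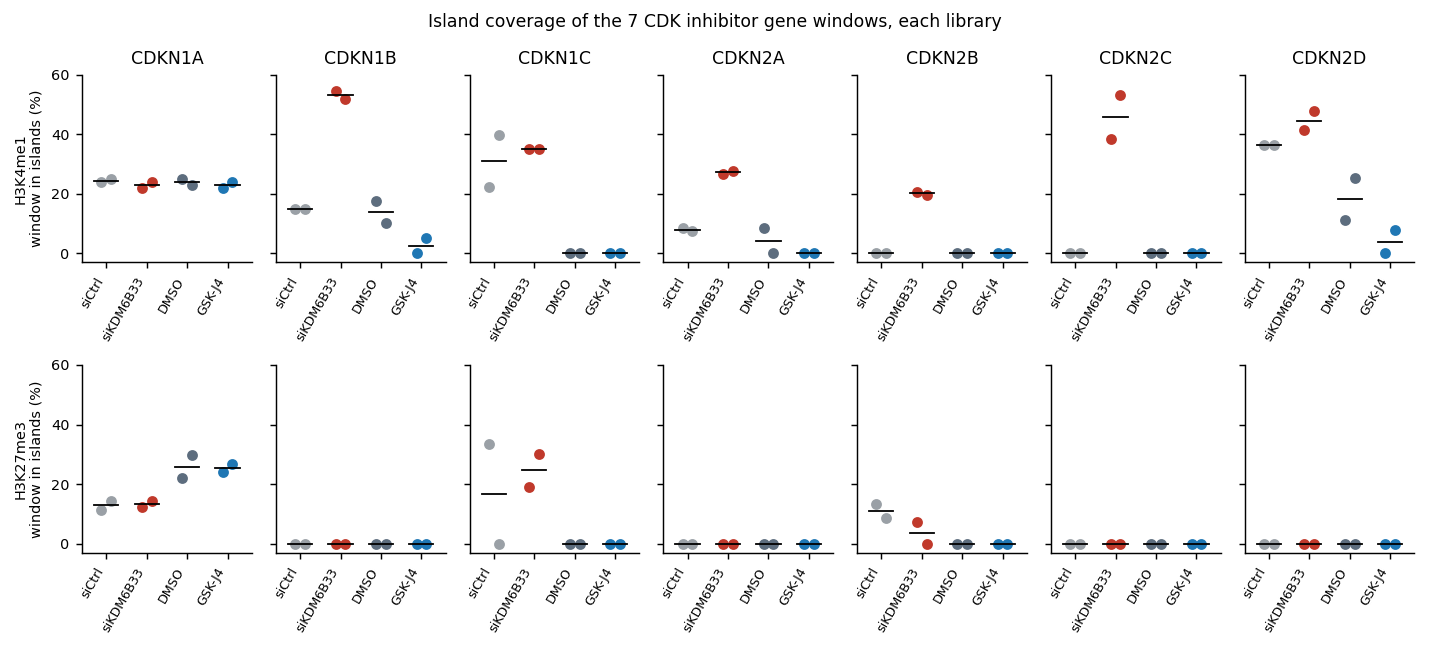
Percent of each gene window (body with 5 kb on each side) inside islands, on the y axis, for H3K4me1 (upper row) and H3K27me3 (lower row). Each point is a library, 2 per group, and each bar is the group mean. H3K4me1 lay at 0 in both siCtrl libraries of CDKN2B and CDKN2C and at 19.5% to 53.2% after siKDM6B33, and only CDKN1A, CDKN1C and CDKN2B had any H3K27me3 island.

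H3K4me1 coverage was higher in both siKDM6B33 libraries than in both siCtrl libraries at 5 of the 7 genes and lower at 0. The same held for 46.4% and 9.66% of all 20098 genes. The median difference was +19.2 percentage points over the 7 genes, +1.06 over all genes and +4.44 over the genes with an island in any of the 4 libraries. By limma on coverage, fitted across 14031 genes with Benjamini-Hochberg adjustment, H3K4me1 rose at 4 of the 7 genes and fell at 0, where 45.9% of the tested genes rose and 6.61% fell. *CDKN2C*, *CDKN1B*, *CDKN2B* and *CDKN2A* were the genes that rose. Leaving out either siCtrl library ended all 4 calls, with an adjusted p of 0.0569 to 0.168 and differences of 18.6 to 45.8 points. Without siCtrl replicate 1, 0 members were called, and without siCtrl replicate 2, 1 was, *CDKN1C* (+12.7 points, adjusted p = 0.0321). With islands of at least 2 kb alone, *CDKN2B* had no H3K4me1 island in any of the 4 libraries and its difference was 0. Over the alternatives in which the gene was tested, the adjusted p ran from 0.000261 to 0.0646 at *CDKN1B*, 0.00248 to 0.0596 at *CDKN2A*, 1.01e-06 to 0.0610 at *CDKN2B* and 0.000117 to 0.168 at *CDKN2C*. With the covered length made equal in the 4 libraries, 5 genes were still higher in both siKDM6B33 libraries and 4 were still called.

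Of the CIP/KIP genes, *CDKN1B* had the widest gain. It lies on chromosome 12 from 12838432 to 12875303, with its main start at 12870302 near the 3′ end of the annotated body. H3K4me1 covered 54.3% and 51.8% of its window in the siKDM6B33 libraries and 14.9% in each siCtrl library. The groups did not overlap, with a difference of +38.1 points (SE 1.304, adjusted p = 0.00245 by limma). A single island of 16600 bp and 16200 bp ran from upstream of the main start past the gene's 3′ end in the siKDM6B33 libraries, in the top 4.17% and 3.96% of all islands of those libraries by score. In siCtrl cells the islands at that start were 3200 bp and 4800 bp wide and ranked in the top 42.1% and 45.1%. The islands of the siKDM6B33 libraries thus spanned the stretch from the main start to the 3′ end of *CDKN1B* and reached *APOLD1*, the next protein-coding gene downstream. They also covered the lncRNA ENSG00000256658, which lies between *CDKN1B* and *APOLD1*. Within 1 kb of the main start, coverage was 100% in both siKDM6B33 libraries and 54.9% and 64.9% in siCtrl.

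The narrow peaks of the *CDKN1B* window showed the same order. There were 25 and 26 in the siKDM6B33 libraries and 13 and 11 in siCtrl. The strongest of all 4 libraries stood not at the main start but upstream of the annotated body. In the first siKDM6B33 library its summit, at 12837498, had 53 tags and stood at −32804 bp from the main start, and in the second it lay at 12837493 with 44 tags. The peak was called in all 8 H3K4me1 libraries, with 22 and 18 tags in siCtrl, 9 and 5 in DMSO and 7 and 5 in GSK-J4. Its fold enrichment over the local background of its own library was 25.3 and 21.4 after siKDM6B33 and 16.1 and 13.5 in siCtrl. The peak spans an untranslated exon and an intron of *GPR19*, a G protein-coupled receptor gene on the opposite strand. The intronic part of its reference sequence is given because this peak had the most H3K4me1 tags in any of the 7 windows.
CDKN1B upstream peak, chr12:12837456-12837592, plus strand: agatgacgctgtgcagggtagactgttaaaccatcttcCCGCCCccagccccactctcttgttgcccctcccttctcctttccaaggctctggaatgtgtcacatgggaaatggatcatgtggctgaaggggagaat
It holds 1 GC box, in capitals, and 2 CpG. The 200 bp around a summit held a GC box at 22.01% of the 130210 narrow peaks of the first siKDM6B33 library. At the main start itself a peak at chr12:12870217-12870251 had 32 and 23 tags after siKDM6B33, and it was called in the second siCtrl library alone, with 6 tags.

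*CDKN1A*, the p53 target that stops the cycle after damage, lies on chromosome 6 from 36644237 to 36655114. H3K4me1 covered 22.03% and 23.9% of its window after siKDM6B33 and 23.9% and 24.9% in siCtrl, and the groups touched (difference −1.44 points, SE 1.07, adjusted p = 0.347). The 2 kb around its main start at 36646491 were fully covered in all 8 H3K4me1 libraries. The peaks inside the island did differ. The summit at 36646509, 11 bp downstream of the nearest annotated start, had 39 tags in each siKDM6B33 library, where the siCtrl summits had 15 and 17. Divided by the genome background of each library these were 365 and 371 against 166 and 200. The window held 8 and 7 narrow peaks after siKDM6B33 and 4 in each siCtrl library. The island score was 1504 and 1260 after siKDM6B33 and 620 and 532 in siCtrl. At the distal start, 36644237, coverage within 1 kb was 61.8% and 71.8% after siKDM6B33 and 81.8% in each siCtrl library.

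**Figure D2:**
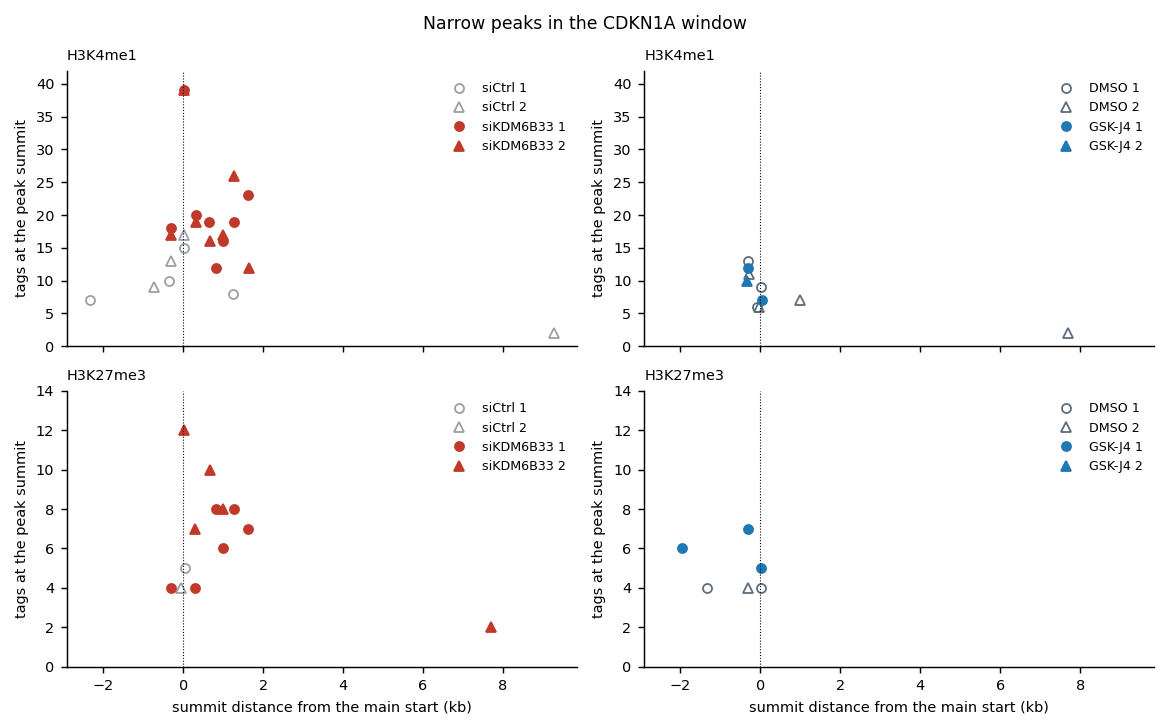
Tags at the summit of each narrow peak (y axis) in the CDKN1A window against its distance from the main start in kb (x axis), for H3K4me1 (upper row) and H3K27me3 (lower row), in the knockdown (left) and compound (right) experiments. Open symbols are controls, filled symbols treated libraries, circles replicate 1 and triangles replicate 2. The siKDM6B33 summits at the start reached 39 tags of H3K4me1 in both libraries, against 15 and 17 in siCtrl, and the second GSK-J4 library had no H3K27me3 peak.

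*CDKN1C*, an imprinted gene expressed from the maternal allele, lies on chromosome 11 from 2904443 to 2907005. Its H3K4me1 coverage was 35.0% in each siKDM6B33 library and 22.3% and 39.8% in siCtrl, so the groups overlapped. The difference was +3.98 points (SE 7.66, adjusted p = 0.682). The island lay over the start in all 4 libraries, with at least 99.8% of the 2 kb around it covered. The window held 2 and 4 narrow peaks after siKDM6B33, and 3 and 0 in siCtrl.

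**Figure D3:**
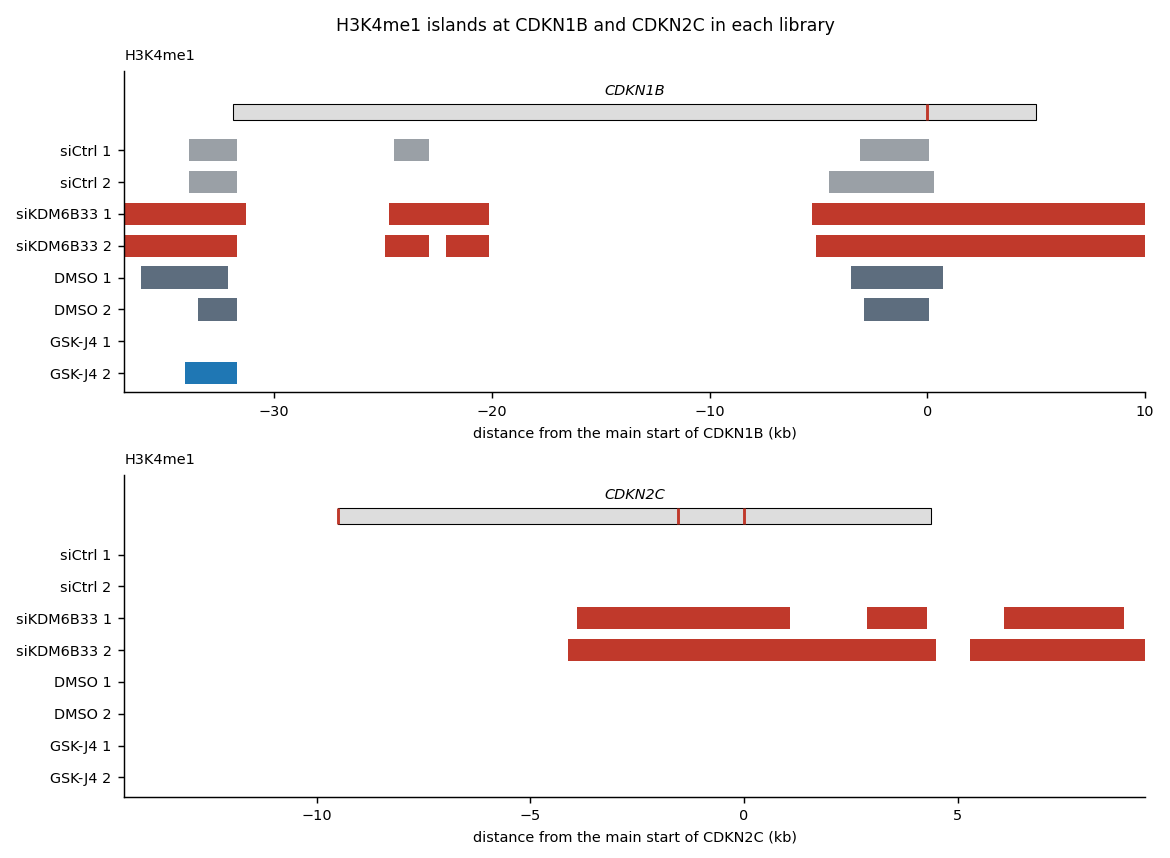
H3K4me1 islands (coloured bars) in each of the 8 libraries of the mark, by distance in kb from the main start of CDKN1B (upper) and CDKN2C (lower). Grey boxes are gene bodies, red ticks annotated starts, and islands are drawn within the window only. At CDKN1B the siKDM6B33 island at the main start reaches the edge of the window, and at CDKN2C no library other than the siKDM6B33 libraries has an island.

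Of the INK4 genes, *CDKN2C* had the largest difference of the family. It lies on chromosome 1 from 51426417 to 51440306, with starts at 51434378 and at its main start 51435917, and a further start at 51426417. H3K4me1 covered 38.5% and 53.2% of its window after siKDM6B33 and 0% in both siCtrl libraries (difference +45.8 points, SE 6.41, adjusted p = 0.0221). With the replicate block the call was lost at *CDKN2C*. Within 1 kb of each of its 2 inner starts, coverage was 100% after siKDM6B33 and 0% in siCtrl. At the outermost start it was 0% in all 4. The absence of an island in siCtrl was not an absence of signal. A narrow peak with its summit between 51433885 and 51433908, upstream of the start at 51434378, was called in all 8 H3K4me1 libraries. It had 29 and 31 tags after siKDM6B33, 9 and 8 in siCtrl, 4 and 6 in DMSO and 4 and 3 in GSK-J4. Its fold enrichment was 18.5 and 19.7 after siKDM6B33 and 9.07 and 8.06 in siCtrl. The peak spans an untranslated exon of *CDKN2C* and an exon of the antisense lncRNA ENSG00000290102, which CUT&Tag cannot tell apart. The window held 12 and 9 narrow peaks after siKDM6B33 and 3 and 2 in siCtrl. Of the siKDM6B33 peaks, 6 and 4 lay in a stretch beyond the 3′ end of the gene, from 51441946 to 51444104, under islands of 2800 bp and 7200 bp.

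*CDKN2A* and *CDKN2B* lie side by side on chromosome 9, from 21967751 to 21995300 and from 22002902 to 22009304, and their windows share 2399 bp. At *CDKN2A*, H3K4me1 covered 26.6% and 27.7% of the window after siKDM6B33 and 8.52% and 7.46% in siCtrl (difference +19.2 points, SE 0.791, adjusted p = 0.00304). The 2 promoters of the gene differed. Within 1 kb of the INK4A start at 21974856, coverage was 97.2% and 100% after siKDM6B33 and 0% in both siCtrl libraries. Within 1 kb of the ARF start at 21994410 it was 100% after siKDM6B33 and 80.5% and 100% in siCtrl, so that the groups touched. The strongest peak near the ARF start had 18 and 12 tags after siKDM6B33 and 9 and 5 in siCtrl. At the INK4A start the strongest peak had 9 and 8 tags after siKDM6B33 and 4 and 6 in siCtrl, a smaller gap than that in island coverage. The window held 10 and 9 narrow peaks after siKDM6B33 and 5 and 4 in siCtrl.

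At *CDKN2B*, H3K4me1 covered 20.7% and 19.5% of the window after siKDM6B33 and 0% in siCtrl (difference +20.1 points, SE 0.605, adjusted p = 0.00207). There were 2 islands, at the start and in the last exon. Within 1 kb of the start at 22009304 coverage was 64.8% in both siKDM6B33 libraries. The island in the last exon, 1800 bp wide in each, carried the strongest peak, at 22005559 with 25 tags and at 22005560 with 23, in the untranslated part of that exon. The nearest siCtrl peaks, at 22005172 and 22005304, had 4 tags each. Near the start of the gene, the strongest peak had 18 and 19 tags after siKDM6B33 and 6 and 4 in siCtrl. The window held 5 and 8 narrow peaks after siKDM6B33 and 3 and 2 in siCtrl. The lncRNA *CDKN2B-AS1* runs through this window on the opposite strand, so a peak here belongs to the place and not to a gene. The coding parts of exon 2 of *CDKN2A* and *CDKN2B* are near copies (93.0% identity over 256 aligned bp, with an identical run of up to 80 bp). *CDKN2A* exon 2 lay under no island in any library, and the loss of reads that could not be placed uniquely there was not tested.

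**Figure D4:**
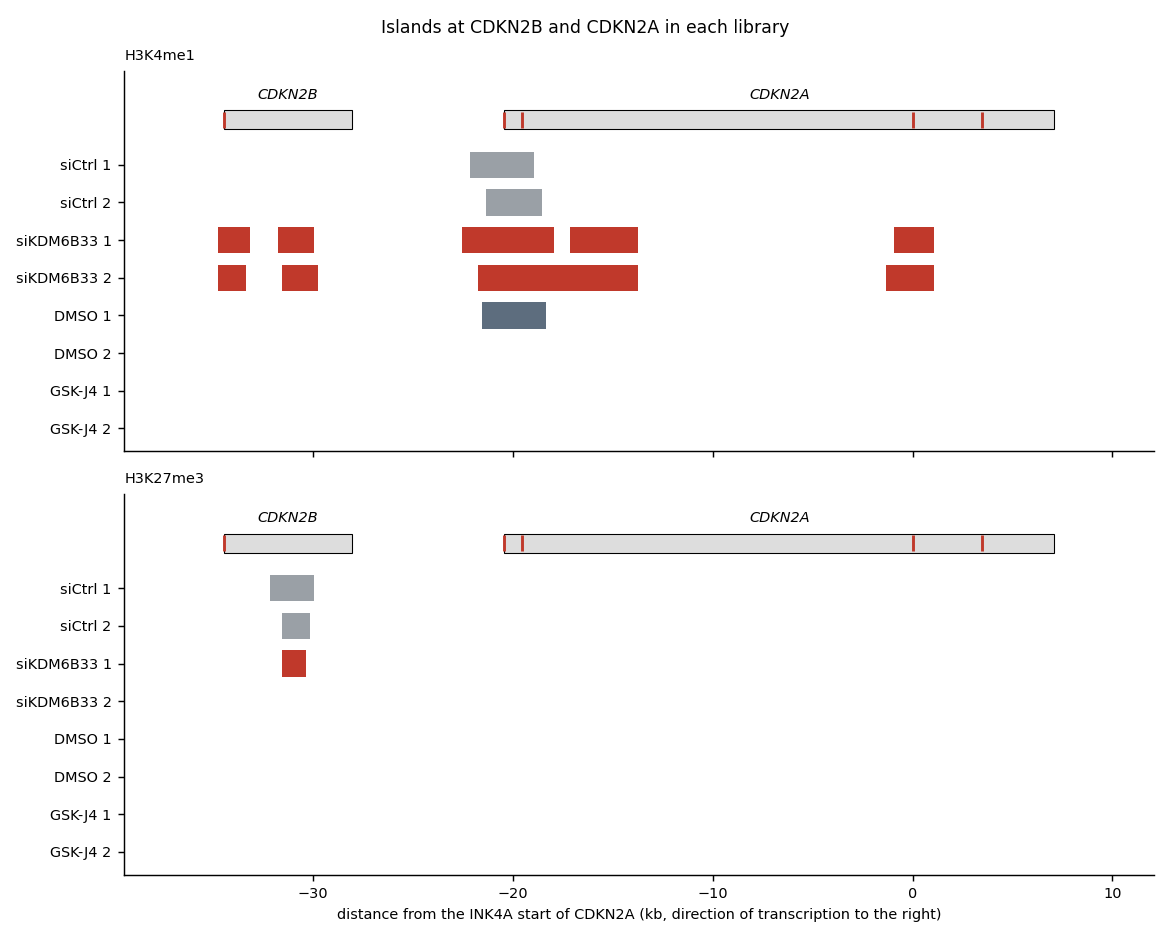
Islands of H3K4me1 (upper) and H3K27me3 (lower) at CDKN2B and CDKN2A in each of the 16 libraries, by distance in kb from the INK4A start of CDKN2A, with transcription running to the right. Grey boxes are gene bodies and red ticks annotated starts. The siKDM6B33 libraries have H3K4me1 islands at the CDKN2B start, the CDKN2B last exon and the INK4A start where siCtrl has none, and H3K27me3 islands lie at the CDKN2B last exon alone.

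*CDKN2D* lies on chromosome 19 from 10677136 to 10679735. H3K4me1 covered 41.3% and 47.6% of its window after siKDM6B33 and 36.5% in each siCtrl library. The groups did not overlap, but the difference of +7.94 points (SE 2.86) missed the threshold (adjusted p = 0.1202), and with islands within 2 kb joined it was −0.794. Without siKDM6B33 replicate 1 it was +11.1 and called (adjusted p = 0.0213). What differed was the inside of the window. In siCtrl each library had 2 islands, of 2200 to 2400 bp, one over the start and the other over the 3′ end and the head of *KRI1*, which follows it on the same strand. In siKDM6B33 they were a single island of 5200 bp and 6000 bp, in the top 15.2% and 17.8% by score. There were 8 narrow peaks in each siKDM6B33 library and 2 and 3 in siCtrl. The strongest, at 10676061 in an exon of *KRI1*, had 31 and 25 tags after siKDM6B33, and the siCtrl peaks at that place had 9 and 7.

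Across the 7 genes, the number of narrow H3K4me1 peaks was higher in both siKDM6B33 libraries at 6, all but *CDKN1C*, as it was at 36.3% of all genes. Of 13 separate starts of the 7 genes, coverage within 1 kb was higher in both siKDM6B33 libraries at 6 and lower at 1, the distal start of *CDKN1A*. Among all 55613 distinct starts, which were not joined within 500 bp as those of the 7 genes were, these shares were 39.9% and 1.35%. With 2 libraries against 2, the exact two-sided permutation test of a single gene cannot go below p = 0.33, and each of these non-overlapping differences sits at that value.

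With GSK-J4, H3K4me1 coverage was lower in both treated libraries at 2 of the 7 genes (7.99% of all genes) and higher at 0 (10.3%). By limma 0 of the 9074 genes tested were called, with 1362 at an unadjusted p under 0.05. In simulated data the fit recovered none of the added changes in either compound comparison, so a count of 0 there does not show that nothing changed. Among the 4 of the 7 genes that were tested, 1 had an unadjusted p under 0.05, *CDKN1B*. Its window was covered to 0% and 5.12% in GSK-J4 and 17.5% and 10.2% in DMSO (difference −11.3 points, SE 3.66, adjusted p = 0.332). The narrow peaks of the window overlapped in number, at 5 and 9 in GSK-J4 and 8 and 3 in DMSO. The island in the second GSK-J4 library scored 54.0, where the lowest score of that library was 52.2. The DMSO islands scored 56.0 to 94.3, where the lowest scores were 52.6 and 48.8. Within 1 kb of the main start of *CDKN1B* coverage was 0% in both GSK-J4 libraries and 84.9% and 54.9% in DMSO. The peak at chr12:12870217-12870251, which lies within the printed promoter, had 6 and 8 tags in DMSO and was called in neither GSK-J4 library. *CDKN2D* was the other gene, at 0% and 7.94% in GSK-J4 and 11.1% and 25.4% in DMSO (difference −14.3 points, SE 6.58, adjusted p = 0.486). It was −7.14 without DMSO replicate 2, −21.4 without DMSO replicate 1 and −34.6 over the gene body alone. At its start coverage within 1 kb was 0% and 49.98% in GSK-J4 and 69.97% and 59.97% in DMSO. These were the 2 starts of 13 that were lower in both GSK-J4 libraries (4.76% of all starts), and 0 were higher (1.50%).

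At *CDKN1A* the H3K4me1 window was covered to 22.03% and 23.9% in GSK-J4 and 24.9% and 22.99% in DMSO, and its main start was again fully covered in all 4. The strongest peak of the window was here upstream of the start, between 36646166 and 36646196, with 12 and 10 tags in GSK-J4 and 13 and 11 in DMSO. *CDKN2A* had an island in the first DMSO library alone, over the ARF start (8.52% of the window). *CDKN1C*, *CDKN2B* and *CDKN2C* had no H3K4me1 island in any of the 4 libraries. In number of narrow peaks, 1 gene was lower in both GSK-J4 libraries, *CDKN1A* with 2 and 1 against 3 and 4 (6.69% of all genes), and 0 were higher (10.8%).

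**Figure D5:**
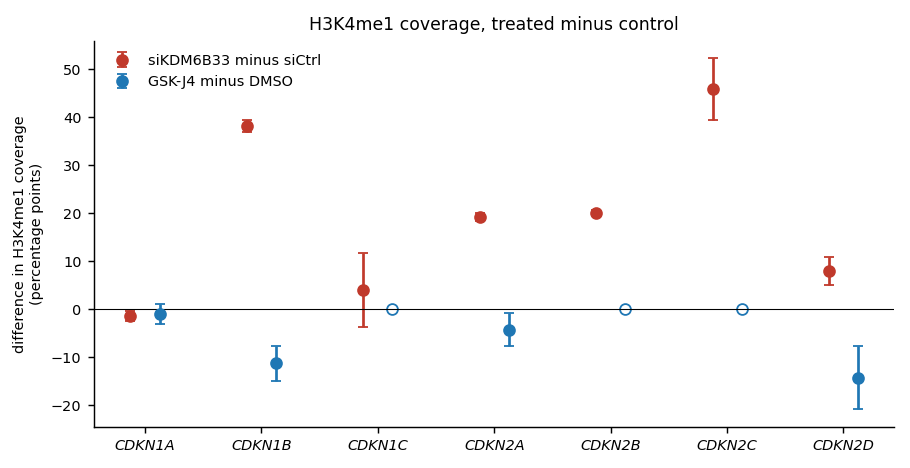
Difference in H3K4me1 coverage of each gene window, treated minus control, in percentage points (y axis), for siKDM6B33 (red) and GSK-J4 (blue). Points are differences of the means of 2 libraries, error bars are limma standard errors, and open points are genes with no island in the 4 libraries. The knockdown differences reach +45.8 points at CDKN2C, and the GSK-J4 differences run from −14.3 to 0.

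The difference between the effects was itself tested, by limma over the 8 H3K4me1 libraries with the knockdown effect minus the compound effect as the contrast. It differed at 4 of the 7 genes, as it did at 52.2% of 14308 genes. The contrast was +49.4 points at *CDKN1B* (SE 4.42, adjusted p = 0.000543), +45.8 at *CDKN2C* (SE 6.57, adjusted p = 0.00323), +23.4 at *CDKN2A* (SE 3.95, adjusted p = 0.00585) and +20.1 at *CDKN2B* (SE 0.836, adjusted p = 4.03e-05). On the log2 scale, 2 of the 4 calls were lost, at *CDKN1B* (adjusted p = 0.0708) and *CDKN2A* (adjusted p = 0.172). It was +22.2 points at *CDKN2D* (SE 7.96, adjusted p = 0.0666), which was called without DMSO replicate 1 (+29.4 points, adjusted p = 0.0237). At *CDKN1A* it was −0.479 (SE 2.41, adjusted p = 0.879) and at *CDKN1C* +3.98 (SE 7.86, adjusted p = 0.689). The value at *CDKN1C* hung on the siCtrl libraries, being +12.7 and called without siCtrl replicate 2 (adjusted p = 0.00355) and −4.78 without siCtrl replicate 1 (adjusted p = 0.0615). The compound experiment was the shallower for this mark, and 3 of the 7 genes had no island there to lose. The agent, the experiment and its depth cannot be told apart. The same contrast for H3K27me3 called 0 of the 7 genes and 5.00% of 9365 genes, with an adjusted p of 0.527 or more at the 3 genes tested.

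In the knockdown experiment, 3 of the 7 genes, *CDKN1A*, *CDKN1C* and *CDKN2B*, had an H3K27me3 island in at least 1 library, as 28.2% of all genes did. In the compound experiment 1 did, *CDKN1A*, against 38.6% of all genes. *CDKN2A*, whose locus PRC2 is known to silence in other cells, had no H3K27me3 island in any library. The genes without an island still had narrow H3K27me3 peaks in some libraries, of 2 to 4 tags. At *CDKN2A* each siCtrl library had 1, near the ARF start, with 4 tags. After siKDM6B33 coverage was higher in both libraries at 0 genes (10.0% of all genes) and lower at 1 (3.26%). By limma 3 of the 7 were tested, and 0 were called in either direction. Of 5677 tested genes, 5.28% rose and 0.934% fell. Of the 3 members tested, 0 had an unadjusted p under 0.05. The direction over all genes was not stable. Of the calls, 85.0% were rises as deposited, 14.5% with covered length made equal, 26.4% without siCtrl replicate 1 and 28.0% without siCtrl replicate 2. The gene that was lower was *CDKN2B*, at 7.32% and 0% after siKDM6B33 and 13.4% and 8.54% in siCtrl (difference −7.32 points, SE 3.66, adjusted p = 0.397). The difference was −3.66 without siKDM6B33 replicate 2, −4.88 without siCtrl replicate 1 and −18.7 over the gene body alone, and with islands of at least 2 kb the groups overlapped. The single siKDM6B33 island there was among the weakest of its library, at rank 15823 by score of 15947. H3K27me3 and H3K4me1 were found at the same exon. In siCtrl, 1400 bp were under H3K27me3 in both replicates and 0 under H3K4me1. After siKDM6B33, 0 bp were under H3K27me3 in both replicates and 3000 bp of the window were under H3K4me1. The strongest H3K27me3 peak of this window had 7 and 12 tags in siCtrl and 5 in each siKDM6B33 library, and in the treated libraries its summit, at 22005577 and 22005556, lay inside the strongest H3K4me1 peak.

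*CDKN1A* had both marks in both replicates of every group. H3K27me3 covered 12.5% and 14.4% of its window after siKDM6B33 and 11.5% and 14.4% in siCtrl (difference +0.479 points, SE 1.80, adjusted p = 0.907). Its sign was not settled, at −0.958 without siCtrl replicate 1, −0.479 without siKDM6B33 replicate 2 and +1.92 without siCtrl replicate 2. The width did not separate the groups, but the peaks and scores did. The number of narrow H3K27me3 peaks was 6 and 5 after siKDM6B33 and 1 in each siCtrl library, and *CDKN1A* was the 1 gene of the 7 with more in both treated libraries (10.1% of all genes). The strongest had 8 and 12 tags after siKDM6B33 and 5 and 4 in siCtrl, which was 149 and 227 against 127 and 99.7 times the genome background. The island score was 261 and 356 after siKDM6B33, in the top 24.8% and 18.8% of islands, and 60.6 and 95.0 in siCtrl, in the top 78.5% and 56.0%. The 2 marks overlapped over 2400 bp called in both replicates in siCtrl and over 2400 bp after siKDM6B33. In DMSO and in GSK-J4 the overlap was 4600 bp. The H3K27me3 islands there were in the top 92.0% and 87.4% of islands by score in DMSO and 30.4% and 70.2% in GSK-J4. Of the bases at *CDKN1A* under H3K27me3 islands in both replicates of a group, 92.0% to 100% were also under H3K4me1 islands in both, while in single libraries the H3K27me3 island could reach further, as in DMSO replicate 2, where it was 6200 bp wide and the H3K4me1 island 4800 bp.

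The 2 siCtrl libraries were far apart at *CDKN1C*. H3K27me3 covered 33.4% and 0% of its window in siCtrl and 19.1% and 30.2% after siKDM6B33 (difference +7.96 points, SE 14.4, adjusted p = 0.781). The sign was not settled, since the difference was −16.7 points with equal covered length, −8.76 without siCtrl replicate 2 and +24.7 without siCtrl replicate 1. Both marks met over 2400 bp in both replicates after siKDM6B33.

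With GSK-J4, H3K27me3 islands were found at *CDKN1A* alone, covering 23.9% and 26.8% of the window in GSK-J4 and 22.03% and 29.7% in DMSO (difference −0.479 points, SE 4.57, adjusted p = 0.981). The sign was not settled, since the difference was +0.958 without the first GSK-J4 library, which stood apart, −4.31 without DMSO replicate 1, +3.35 without DMSO replicate 2 and +7.71 with 10 kb on each side, where both GSK-J4 libraries were higher. Coverage was higher in both GSK-J4 libraries at 0 of the 7 genes (5.54% of all genes) and lower at 0 (4.04%), and limma called 0 of 7767 genes, with 388 at an unadjusted p under 0.05. Its narrow peaks were 3 and 0 in GSK-J4 and 2 and 1 in DMSO. *CDKN2C* was the 1 gene with more narrow H3K27me3 peaks in both GSK-J4 libraries, 2 and 1 against 0 and 0, where 15.3% of all genes were so. These had 2 to 4 tags, and the highest lay on the H3K4me1 peak of that gene, at 51433894.

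The other genes of the pathway were a list of 21 cyclins, CDKs, RB family members and related genes. After siKDM6B33, H3K4me1 coverage was higher in both libraries at 17 and lower at 1, and 10 rose and 0 fell by limma. These compare with the 46.4% of all genes that were higher, the 9.66% that were lower and the 45.9% of tested genes that rose. The largest differences were at *PCNA*, the sliding clamp of DNA replication (52.6% and 46.1% against 18.5% and 12.9%, +33.7 points, SE 3.76, adjusted p = 0.0153), and at *CDK2*, the main kinase that CIP/KIP proteins inhibit (38.7% and 42.5% against 11.2% and 6.25%, +31.9 points, SE 2.77, adjusted p = 0.0101). Leaving out siCtrl replicate 1 or siCtrl replicate 2 ended all 10 calls (adjusted p from 0.0608 to 0.213), and with the replicate block 4 of the 10 were still called, *CDK2* not among them (adjusted p = 0.0584). Leaving out either siKDM6B33 library also ended the calls at *PCNA* and *CDK2*. With equal covered length the difference at *CDK2* was +17.5 points, below that at *CDK4* (+27.3) and *CDK1* (+21.9). The list's median difference was +4.56 points, close to the +4.44 over all genes with an island in any of the 4 libraries. H3K27me3 was lower in both siKDM6B33 libraries at *CDK4*, the kinase that INK4 proteins bind (0% and 0% against 12.03% and 13.1%, −12.6 points, SE 0.853, adjusted p = 0.0377), which fell. That call was lost with the replicate block (adjusted p = 0.207), without siKDM6B33 replicate 1 (adjusted p = 0.107), without siKDM6B33 replicate 2 (adjusted p = 0.104), with the gene body alone (adjusted p = 0.147), with 10 kb on each side (adjusted p = 0.194) and with all 8 libraries in the fit (adjusted p = 0.163). H3K27me3 was higher at *CCNA1*, a germline A-type cyclin (62.8% and 65.6% against 37.5% and 59.98%, +15.5 points, SE 9.44, adjusted p = 0.497), and the difference was +4.22 without siCtrl replicate 1 and +26.7 without siCtrl replicate 2. With GSK-J4, H3K4me1 was higher at 1 (10.3% of all genes) and lower at 3 of the 21 (7.99%), and limma called 0. *CCND1*, a D-type cyclin, was at 66.0% and 66.9% in GSK-J4 and 85.4% and 72.9% in DMSO (−12.7 points, SE 5.54, adjusted p = 0.460). This was −6.43 without DMSO replicate 1 and −18.95 without DMSO replicate 2, and over the gene body alone the difference was nil. *CCNE1*, the cyclin partner of CDK2, was at 4.94% in each GSK-J4 library and 1.36% and 0% in DMSO (+4.26 points, SE 0.772, adjusted p = 0.164). It was called without DMSO replicate 1 (adjusted p = 0.0246) and without DMSO replicate 2 (adjusted p = 0.0172), and *RB1*, which was lower, was called without DMSO replicate 1 (adjusted p = 0.0326). For H3K27me3, 0 of the 21 were apart with GSK-J4.

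For each inhibitor gene, the gene most like it over all 16 libraries was the protein-coding gene with the smallest mean absolute difference in coverage, among 20086 with no overlap of a member window. These were *ROMO1* for *CDKN2C* (0.288 points), *TMEM126B* for *CDKN2B* (0.726), *FBXL12* for *CDKN2A* (0.889), *HNRNPF* for *CDKN1B* (1.70), *MID1IP1* for *CDKN2D* (2.36), *KASH5* for *CDKN1A* (2.47) and *CAMK2N2* for *CDKN1C* (6.26). *CDKN1C* thus had no close match. The values are a description over 16 libraries that share 4 treatments and their depths.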

How the data were processed

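The authors aligned CUT&Tag reads to hg19 (BWA 0.7.12), removed duplicates (Picard 1.65), kept properly paired, uniquely mapped fragments and called regions in each library without a control library. The deposited islands carry a SICER 1.1 score, made by the authors from 200 bp windows. The deposited narrow peaks carry a MACS2 fold enrichment and −log10 p and q values, also as the authors made them. No read counts were used.

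Each gene window was the GENCODE 44 (hg19) body with 5 kb on each side, and coverage was the percent of it inside islands. Summit tags and the genome background were recovered from the fold and p of each peak. Coverage was compared by whether both treated libraries lay above or below both controls, by exact two-sided permutation tests, and by limma 3.58.1 (R 4.3.3, trended and robust empirical Bayes) over genes covered in at least 1 of the 4 libraries, with Benjamini-Hochberg adjustment at 0.05. The fit was tested on simulated data: it recovered part of the added changes in the knockdown comparisons, none in the compound comparisons, and made no false call in any. The simulated libraries were drawn from the control libraries alone, so false calls from a difference in depth were not tested. Python 3.11.15 and, for the exon 2 alignment, Biopython 1.88 were used. The members were named by family, not by a value, but this family and the lists were chosen with earlier results of these data known. All 7 members were named in each comparison, of the pathway list the 2 largest non-overlapping differences per comparison, and for each member the 1 gene most like it. Starts of a member's transcripts within 500 bp were treated as 1, while the shares over all starts counted each distinct start. Alternatives covered the window, the island lists, the covered length, the scale, the replicate block and each replicate left out. The test of the difference between the knockdown and compound effects was added after the data were seen.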

Additional observations from a re-analysis of the deposited data

Results flagged for a closer look

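The knockdown and compound effects on H3K4me1 coverage differed by limma over the 8 libraries of the mark at 4 of the 7 genes, as they did at 52.2% of 14308 genes. The knockdown effect minus the compound effect was +49.4 points at *CDKN1B*, +45.8 at *CDKN2C*, +23.4 at *CDKN2A* and +20.1 at *CDKN2B*. On the log2 scale the calls at *CDKN1B* (adjusted p = 0.0708) and *CDKN2A* (adjusted p = 0.172) were lost. At *CDKN2D* it was +22.2, since both siKDM6B33 libraries lay above both siCtrl libraries and both GSK-J4 libraries lay below both DMSO libraries. The test of that difference missed the threshold (adjusted p = 0.0666 by limma).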

How the results depend on the processing

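Of 238 recomputed counts of members, 204 stayed within 1.5 times the reported count. For H3K27me3 after siKDM6B33, 2 members were lower with 10 kb on each side and 0 with islands of at least 2 kb, and 1 had fewer peaks at a −log10 q of at least 5. For H3K27me3 with GSK-J4, 1 member, *CDKN1A*, was higher with 10 kb on each side, and 0 had more peaks at that q. For H3K4me1 after siKDM6B33, 1 member was lower with 10 kb on each side, and the difference at *CDKN2D* turned to −0.794 points with islands within 2 kb joined. For H3K4me1 with GSK-J4, 1 member was lower with islands of at least 2 kb, 1 with equal covered length, and 0 had fewer peaks at that q. On the log2 scale, the knockdown and compound effects differed at 2 members, *CDKN2B* and *CDKN2C*. Leaving out 1 replicate at a time gave these ranges. For H3K27me3 after siKDM6B33, 0 to 1 members were higher and 1 to 2 lower in coverage, and 1 to 2 higher and 0 to 2 lower in peaks. For H3K27me3 with GSK-J4 these were 0 to 1, 0 to 1, 1 to 3 and 0 to 1. For H3K4me1 after siKDM6B33, 0 to 2 members were lower and 0 to 5 rose by limma. For H3K4me1 with GSK-J4, 2 to 4 were lower in coverage, 0 to 2 higher and 1 to 3 lower in peaks, and 0 to 1 fell by limma. That 1 was *CDKN2A* without DMSO replicate 2 (−8.52 points, adjusted p = 0.00898). A left-out replicate leaves a lone library that is assumed to vary like the other group.

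The replicate numbers did not pair the libraries (correlations of deviations −0.0426 to 0.0692). With the replicate block, limma called 3 members higher for H3K4me1 after siKDM6B33, *CDKN2C* having an adjusted p of 0.0660. Over all genes, H3K27me3 after siKDM6B33 gave 300 rises and 53 falls, against 0 and 0 with the replicate block, 96 and 568 with equal covered length, 626 and 107 on the log2 scale, 726 and 102 with all 8 libraries in the fit, and 74 and 206 or 94 and 242 without siCtrl replicate 1 or 2. H3K4me1 after siKDM6B33 gave 6439 and 927, against 3808 and 441 with the replicate block, and 1208 and 473 without siCtrl replicate 2. With GSK-J4, 0 genes were called as reported, and the fit of all 8 libraries called 137 and 19 for H3K27me3 and 215 and 89 for H3K4me1. Leaving out GSKJ4 replicate 1 or 2 gave 423 and 36 or 2369 and 161 for H3K27me3. For H3K4me1 it gave 463 and 77 or 476 and 83, and leaving out DMSO replicate 1 or 2 gave 114 and 557 or 141 and 878. The cause of these shifts was not tested. The fit over all protein-coding genes, covered or not, could not be made for 3 of the 4 comparisons.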
